A study of Mus musculus with 6 samples.

Results

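Maob, Maoa, Esrrg, Cat, Rdh7, Cyp4v3 and Cpt1a, which act in oxidation, retinol handling and removal of peroxide, were followed in single-cell RNA sequencing of mouse ileal crypt epithelium. The 7 genes were found by symbol among the 32285 genes of the feature table, and all 7 passed the filter on low counts in each of 4 comparisons. They had been chosen from earlier results on these same libraries, in which differences between the groups were known. Differences of the 7 genes between the groups are therefore given as a description. Counts of members past a threshold of the fit over all genes stand beside the share or number of all genes past it. Nothing is read from these counts.

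The 6 libraries formed 2 groups of 3 libraries each, from mice on the C57BL/6J background. Fpr2f/f mice (labelled WT) carried an Fpr2 gene flanked by recombination sites and left in place, and Fpr2VKO mice were those animals crossed with Villin-Cre, a Cre recombinase expressed throughout the intestinal epithelium, from stem cells to villus cells. Fpr2 is thereby deleted in the intestinal epithelium of Fpr2VKO mice. The product of Fpr2 senses formylated peptides, such as those shed by bacteria. No treatment was given in either group, cells were sorted by the epithelial surface protein EpCAM. By the study's methods the mice were young adults matched for age and sex. No UMI (unique molecular identifier, 1 captured transcript) of Fpr2 was counted in any library, so the deletion could not be checked in these data. By the study's account each group held as many mice as libraries, though the labels do not tie a library to a mouse.

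Monoamine oxidases A and B sit in the outer mitochondrial membrane and remove the amine group of transmitters and dietary amines, which releases an aldehyde, ammonia and hydrogen peroxide. Monoamine oxidase A acts mainly on serotonin and noradrenaline, and monoamine oxidase B mainly on phenylethylamine and other trace amines. Catalase, encoded by Cat, breaks down hydrogen peroxide in peroxisomes. Esrrg encodes the orphan nuclear receptor ERR gamma, which binds DNA without a known natural ligand and acts on genes of oxidative metabolism. Rdh7 encodes a short-chain dehydrogenase that oxidizes retinol, Cyp4v3 a cytochrome P450 of the fatty acid hydroxylating family, and Cpt1a the carnitine palmitoyltransferase that sets the entry of long-chain fatty acids into mitochondria. Absorptive enterocytes take up fat, vitamin A and amines from the lumen and are the epithelial cells in which such enzymes are mostly found.

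A barcode was counted as a cell at 1000 or more UMIs, 500 or more genes and at most 20% mitochondrial UMIs, which left 17104 cells. The Fpr2f/f libraries held 2643, 4722 and 2836 cells and the Fpr2VKO libraries 2267, 2768 and 1868. The mitochondrial limit removed 78.0%, 65.7% and 70.9% of the barcodes that met the other limits in the Fpr2f/f libraries. In the Fpr2VKO libraries it removed 90.1%, 76.1% and 85.6%, which overlapped. The part of this loss in the results was not tested. Median UMIs per epithelial cell were 3009, 4586 and 4560 in Fpr2f/f against 6212, 6916.5 and 6786 in Fpr2VKO libraries, without overlap. The part of depth in the results was not tested beyond the values given beside them. In all, 247 cells carried 123 barcodes that occurred in more than 1 library. A pair of libraries shared 0 to 23 barcodes, where 1.79 to 5.68 would be shared if barcodes were drawn independently, and the most were shared by Fpr2f/f replicate 2 and Fpr2VKO replicate 1 (23, beside 4.54). Replicates 1 and 2 of both groups shared 8 to 23 barcodes with each other, beside 2.54 to 5.54 under independence. The replicates 3 of the groups shared 9 (beside 2.25), and 0 to 4 with the other libraries. The part of shared barcodes in the results was not tested. Cells were clustered without the 7 genes, and clusters were called stem-like, TA-like (transit-amplifying) and so on from marker genes. Unnamed clusters held 8328 of the epithelial cells. Levels are given in CPM, the UMIs of a gene scaled to the same total of UMIs in every sum of cells. In bulk sums of this kind, more cells with a transcript and more transcript per cell cannot be told apart.

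Marker genes of the lineages showed where the groups differed in makeup. Of the epithelial cells, 1.84%, 1.22% and 1.33% were stem-like in the Fpr2f/f libraries against 3.91%, 6.18% and 3.64% in the Fpr2VKO libraries, without overlap. In cells of at most 10% mitochondrial UMIs, stem-like cells gave 5.47%, 4.17% and 3.64% of epithelial UMIs against 3.64%, 5.17% and 1.56%, which overlapped. In cells over 10% to 20% they gave 5.63%, 3.73% and 3.04% against 10.5%, 12.9% and 9.63%, without overlap. The summed level of the 10 stem markers over all epithelial cells was 1043 to 1400 CPM in Fpr2f/f and 2230 to 2453 CPM in Fpr2VKO, and 2 of the 10, Olfm4 and Ascl2, were called higher. Enterocyte-like cells made up 9.95% to 22.5% and 16.5% to 19.3% in the same order of groups, and their 15 markers summed to 2594 to 4119 and 3376 to 3833 CPM. Immune clusters were left out of the epithelium, and the immune markers that remained summed to 336 to 458 CPM in Fpr2f/f and 235 to 526 CPM in Fpr2VKO. Markers of mesenchymal, endothelial, glial and red blood cells summed to at most 7.58 CPM in any library. The part of these cells in the results was not tested.

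All 7 genes were placed on build GRCm38 by their gene identifiers in the GENCODE annotation, and all are protein-coding. Maoa (X:16619698-16687818, plus strand) and Maob (X:16709282-16817366, minus strand) are neighbours whose 3′ ends face each other 21463 bases apart. Esrrg lies at 1:187608791-188214885 (plus strand), Cat at 2:103453849-103485160 (minus strand) and Rdh7 at 10:127884028-127888817 (minus strand). Cyp4v3 lies at 8:45304944-45333216 (minus strand) and Cpt1a at 19:3322334-3385733 (plus strand). The exons of Cyp4v3 overlap those of Gm45753, a gene model on the same strand, so the UMIs of the pair may be split. Of the 31-base words in the last 500 bases of the Rdh7 transcripts, 6.03% also occurred in transcripts of other genes, among them its relatives Rdh16f2, Rdh19 and Rdh1. The value was 8.51% for Maoa and at most 2.14% for the other members.

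Promoter windows of 300 bases, 250 before and 50 after a gene start, were available from RefSeq (GRCm38.p6) for 6 of the 7 genes, all but Maob. They were searched on both strands for AGGTCA, the hexamer bound by many nuclear receptors, and for AAGGTCA, its extended form bound by ERR proteins, which overlaps it. The hexamer stood in the window of Cat, in that of Cpt1a and in 1 window of Rdh7, and in 16.3% of the 32851 promoters of the table. The Rdh7 window with it has its start at base 127889247, outside the gene span given above. Another Rdh7 window, with its start at 127888733 inside that span, held none. AAGGTCA stood in none of the 10 windows of these genes and in 4.72% of all promoters. The GC box GGGCGG stood in windows of Esrrg, Cat, Cyp4v3, Cpt1a and Maoa and in 35.7% of all promoters. The 250 bases before the start are shown for the windows with the hexamer. Capitals mark AGGTCA or its reverse complement, which began 204, 105 and 94 bases before the start.
Cat (chr2:103485154-103485403, minus strand, GRCm38): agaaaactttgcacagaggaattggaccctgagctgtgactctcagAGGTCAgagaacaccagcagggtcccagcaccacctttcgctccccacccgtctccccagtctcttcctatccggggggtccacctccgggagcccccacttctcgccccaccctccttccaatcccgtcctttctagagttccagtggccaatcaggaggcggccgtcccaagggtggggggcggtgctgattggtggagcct
Rdh7 (chr10:127889248-127889497, minus strand, GRCm38): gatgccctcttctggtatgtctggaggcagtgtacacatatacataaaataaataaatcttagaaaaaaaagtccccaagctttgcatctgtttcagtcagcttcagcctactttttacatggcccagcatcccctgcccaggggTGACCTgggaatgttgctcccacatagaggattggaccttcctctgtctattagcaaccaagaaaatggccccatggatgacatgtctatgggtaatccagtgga
Cpt1a (chr19:3323051-3323300, plus strand, GRCm38): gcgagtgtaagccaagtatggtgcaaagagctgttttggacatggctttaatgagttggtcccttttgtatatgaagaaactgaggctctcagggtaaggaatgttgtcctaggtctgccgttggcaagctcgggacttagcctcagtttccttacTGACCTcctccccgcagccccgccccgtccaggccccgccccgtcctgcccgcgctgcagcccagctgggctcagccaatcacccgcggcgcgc
A match of these letters is a description and no evidence of binding. The members were chosen for their differences and Maob had no window, so the hexamer was not set against the differences between the groups.

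Maob was mainly a transcript of enterocyte-like cells. Its level there was 73.4, 91.5 and 64.0 CPM in the Fpr2f/f libraries against 129.4, 141.8 and 140.7 CPM in the Fpr2VKO libraries. All 3 Fpr2VKO libraries lay above all Fpr2f/f libraries, with means of 76.3 ± 13.99 and 137.3 ± 6.85 CPM (SD, n = 3 each) and a fitted log2 fold change of 0.85 ± 0.14 (SE). Enteroendocrine-like cells followed at 49.2 ± 16.6 CPM over 6 libraries, with a range that overlapped the enterocyte-like values. Their group means were 49.1 and 49.3 CPM, with Fpr2f/f libraries from 38.8 to 67.2 CPM and Fpr2VKO libraries from 37.1 to 73.6 CPM. Unnamed, tuft-like, stem-like and TA-like cells held means of 13.5 to 16.6 CPM with overlapping ranges. Goblet-like and Paneth-like cells were lowest at 3.50 and 1.98 CPM, and their ranges did not reach the TA-like values.

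Over all epithelial cells, Maob was at 25.8, 22.8 and 23.7 CPM in Fpr2f/f and at 36.2, 41.6 and 42.9 CPM in Fpr2VKO libraries. The groups did not overlap, and the fitted log2 fold change was 0.79 ± 0.11 (SE). In TA-like cells the level was 14.3, 10.3 and 9.16 against 15.8, 16.01 and 15.4 CPM, again without overlap. In stem-like cells it was 11.6, 13.6 and 14.7 against 19.3, 14.02 and 14.2 CPM, which overlapped. The fitted log2 changes were 0.48 ± 0.21 and 0.26 ± 0.26 (SE).

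Maoa was highest in enterocyte-like cells as well, and its range over the 6 libraries there overlapped that of no other class. It reached 835.3, 833.7 and 845.7 CPM in Fpr2f/f against 970.4, 998.5 and 1063 CPM in Fpr2VKO enterocyte-like cells. The groups did not overlap, with a fitted log2 fold change of 0.28 ± 0.12 (SE). Levels fell through TA-like (394.0 CPM), unnamed (327.0 CPM), tuft-like (232.4 CPM) and stem-like cells (180.0 CPM), with each class overlapping the next, to 30.7 CPM in Paneth-like cells. Over all epithelial cells it was at 388.3, 310.9 and 394.4 CPM in Fpr2f/f against 374.2, 368.5 and 440.1 CPM in Fpr2VKO libraries. These overlapped, as did the stem-like and TA-like values. The fitted changes were 0.17 ± 0.12 over all epithelial and 0.19 ± 0.14 in TA-like cells (log2, SE). Free RNA, taken as barcodes under 100 UMIs, held Maoa at 203 to 250 CPM, so its levels in tuft-like, stem-like, enteroendocrine-like, goblet-like and Paneth-like cells, near or below that range, are not read as expression or as a difference.

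**Figure D1:**
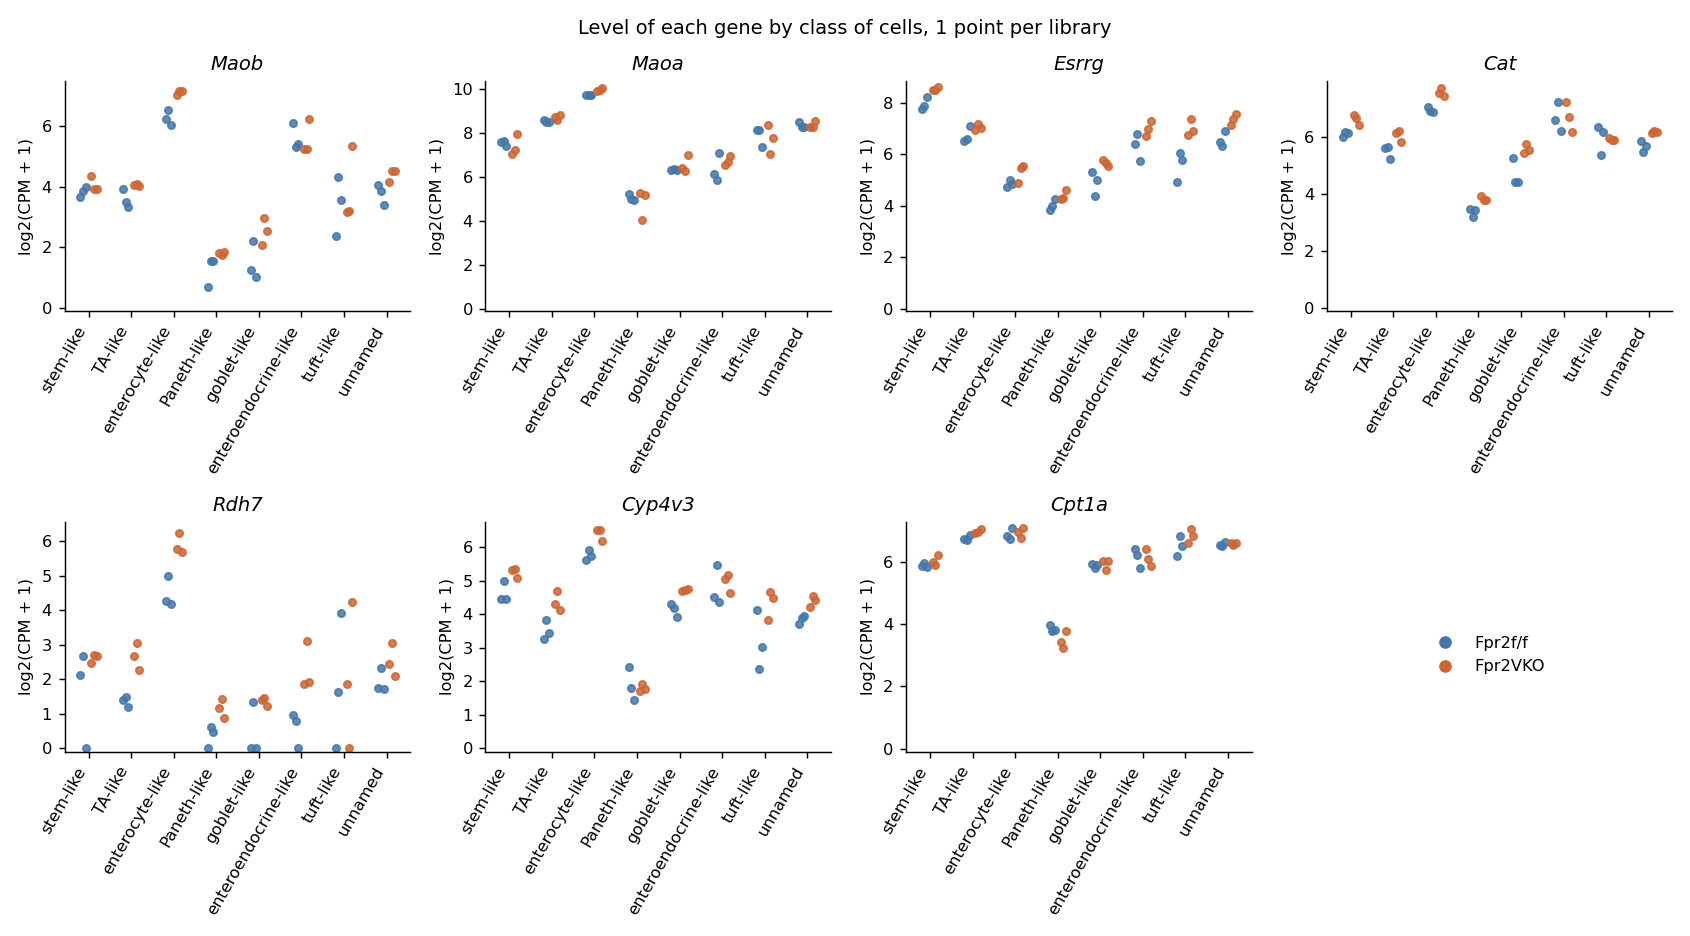
Level of each of the 7 genes as log2(CPM + 1), y axis, in 8 classes of epithelial cells, x axis. Each point is 1 library, blue for Fpr2f/f and orange for Fpr2VKO. Maob, Maoa, Rdh7 and Cyp4v3 stood highest in enterocyte-like cells and Esrrg in stem-like cells, and every gene was lowest in Paneth-like cells.

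Esrrg, the nuclear receptor of the set, was highest in another class. Stem-like cells held 309.5 ± 70.7 CPM over 6 libraries, above every other class without overlap, and enterocyte-like cells 33.6 ± 8.75 CPM. Within the stem-like class, the cluster led by Gkn3, Lgr5 and Olfm4 had 545.4 CPM and the one led by Olfm4, Slc14a1 and Ascl2 had 258.2 CPM over the pooled libraries, the first with as few as 9 cells in a library. Stem-like levels were 218.0, 234.8 and 299.8 CPM in Fpr2f/f against 355.8, 360.7 and 388.2 CPM in Fpr2VKO libraries. The groups did not overlap (log2 fold change 0.56 ± 0.14, SE). The summed 10 stem markers were also apart inside this class, at 10108, 9594 and 12047 against 15481, 12285 and 12977 CPM. The part of that shift in the Esrrg difference was not tested.

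Esrrg over all epithelial cells was at 74.4, 62.6 and 75.8 CPM in Fpr2f/f and at 109.9, 116.2 and 118.0 CPM in Fpr2VKO libraries, with a log2 fold change of 0.75 ± 0.11 (SE). The share of stem-like cells, given above, was also higher in every Fpr2VKO library than in every Fpr2f/f library, and its part in this difference was not tested. TA-like cells held 90.7, 95.5 and 136.9 against 121.1, 145.3 and 127.6 CPM, and enterocyte-like cells 25.6, 30.5 and 27.8 against 28.4, 43.4 and 46.0 CPM. Groups overlapped in both classes. Tuft-like cells, which took up no more than 2.55% of epithelial cells in any library, held 29.2, 65.2 and 53.4 CPM in Fpr2f/f against 105.2, 164.0 and 119.2 CPM in Fpr2VKO libraries.

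Cat, which encodes catalase, was at 129.4, 117.1 and 113.9 CPM in Fpr2f/f enterocyte-like cells and at 183.1, 209.1 and 171.2 CPM in Fpr2VKO ones. Cat did not overlap between the groups in any of the 4 comparisons. Stem-like cells held 62.7, 71.1 and 69.0 against 106.7, 98.6 and 83.7 CPM, and TA-like cells 47.9, 48.2 and 36.4 against 68.2, 71.6 and 55.3 CPM. Free RNA held Cat at 26.0 to 30.7 against 31.7 to 38.4 CPM, in the same order of groups. The lowest TA-like library lay below the highest of these values, so the TA-like difference is not read. Over all epithelial cells the values were 66.2, 50.1 and 59.0 against 86.9, 92.0 and 78.1 CPM. The fitted log2 changes were 0.61 ± 0.12 over all epithelial, 0.52 ± 0.15 in stem-like, 0.56 ± 0.17 in TA-like and 0.66 ± 0.13 in enterocyte-like cells (SE). In enteroendocrine-like cells, where the mean was 105.3 CPM, the group means were 104.2 and 106.4 CPM.

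Rdh7, the retinol dehydrogenase, had the largest fold difference of the 7 genes over all epithelial cells. It was at 4.82, 7.01 and 5.88 CPM in Fpr2f/f and at 13.5, 20.3 and 13.5 CPM in Fpr2VKO libraries, with a log2 fold change of 1.46 ± 0.23 (SE). These Fpr2f/f values lay below the highest value of free RNA (8.75 CPM), where the groups had the same order. The difference is therefore read in enterocyte-like cells only. Of its 2496 UMIs in epithelial cells, 1953 lay in enterocyte-like cells. There the level was 18.3, 31.2 and 17.1 CPM in Fpr2f/f against 54.2, 75.4 and 50.8 CPM in Fpr2VKO libraries, without overlap. Outside that class few UMIs were counted, with 67 in stem-like and 107 in TA-like cells over the 6 libraries. The TA-like libraries held 1.65, 1.79 and 1.31 against 5.41, 7.33 and 3.85 CPM, and the stem-like libraries 3.41, 5.36 and 0 against 4.53, 5.52 and 5.34 CPM.

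Cyp4v3, the P450 of fatty acid hydroxylation, was at 47.8, 59.5 and 52.4 CPM in Fpr2f/f and at 90.1, 89.8 and 72.5 CPM in Fpr2VKO enterocyte-like cells. Its log2 fold change there was 0.67 ± 0.13 (SE). Stem-like cells came next in level, without overlap, at 21.1, 31.2 and 21.2 against 39.0, 40.2 and 32.9 CPM. TA-like cells held 8.68, 13.2 and 9.94 against 18.7, 25.1 and 16.6 CPM, close to free RNA, and all epithelial cells 19.1, 20.5 and 23.0 against 32.8, 36.0 and 29.4 CPM. Groups were apart in each of these comparisons. Of the Fpr2f/f stem-like values, 2 lay below the highest value of free RNA (23.8 CPM), where the groups had the same order, so the stem-like difference is not read. The Fpr2f/f values over all epithelial cells, 19.1 to 23.0 CPM, lay below it too. Cyp4v3 is therefore read in enterocyte-like cells only. The fitted log2 changes were 0.58 ± 0.21, 0.92 ± 0.22 and 0.70 ± 0.13 (SE) in stem-like, TA-like and all epithelial cells.

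Cpt1a, the gate of mitochondrial fatty acid oxidation, did not follow. Over all epithelial cells it was at 87.6, 75.0 and 91.4 CPM in Fpr2f/f and at 86.5, 75.5 and 89.1 CPM in Fpr2VKO libraries, a log2 fold change of 0.03 ± 0.11 (SE). Its means were 119.7 CPM in enterocyte-like and 115.1 CPM in TA-like cells. Goblet-like cells, at 58.5 CPM, and stem-like cells, at 55.2 to 73.5 CPM, lay near the 46.4 to 63.3 CPM of free RNA and Paneth-like cells, at 11.8 CPM, below it, so these classes are not read. The TA-like libraries were the exception, at 103.9, 102.4 and 114.1 CPM against 118.8, 121.3 and 129.9 CPM, without overlap (log2 fold change 0.22 ± 0.12, SE). Enterocyte-like libraries held 111.6, 105.5 and 134.7 against 123.2, 108.2 and 134.7 CPM.

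**Figure D2:**
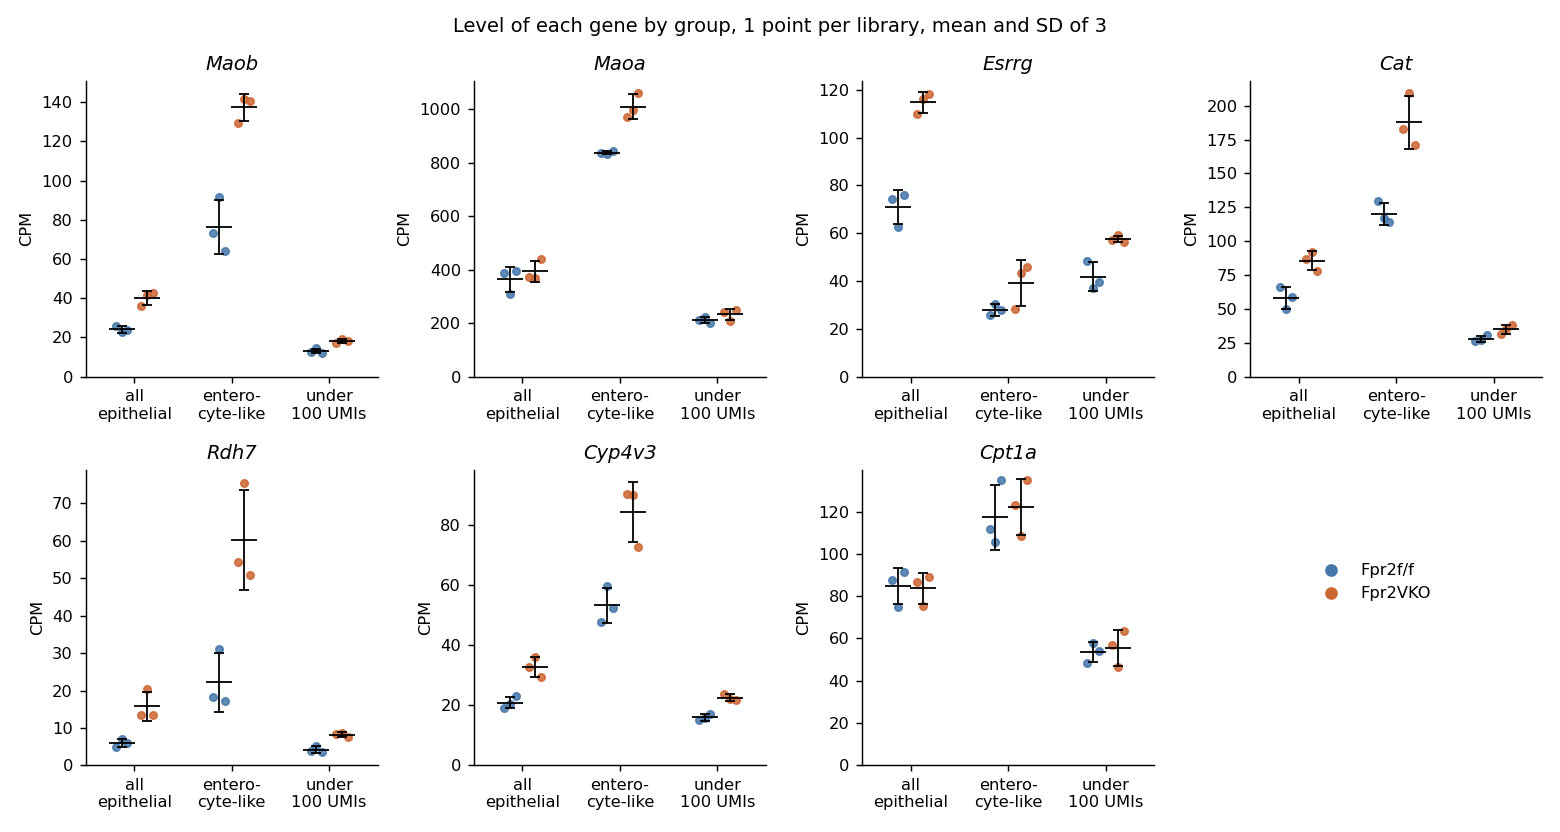
CPM of each gene, y axis from 0, over all epithelial cells, in enterocyte-like cells and in barcodes under 100 UMIs. Points are the 3 libraries of each group, and black bars their mean and SD. The panels of Maob, Esrrg, Cat, Rdh7 and Cyp4v3 separate the groups over all epithelial cells and in the small barcodes alike, while Maoa separates them in enterocyte-like cells and Cpt1a in none of the 3.

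Counted over the 4 comparisons, 5 of the 7 genes (Maob, Esrrg, Cat, Rdh7 and Cyp4v3) had every Fpr2VKO library above every Fpr2f/f library over all epithelial cells, where 3.21% of all tested genes did. The count was 3 of 7 in stem-like cells (5.55% of all), 5 of 7 in TA-like cells (4.22%) and 5 of 7 in enterocyte-like cells (5.53%). An adjusted p under 0.05 (edgeR) was reached by 2 members, Maob and Esrrg, over all epithelial cells, among 0.0421% of all genes, and Esrrg lost it with RLE in place of TMM scaling (adjusted p = 0.056, edgeR). DESeq2 called 5 members there, of 106 genes in all. When 1 library was left out, both kept that call without Fpr2f/f replicate 1 and lost it without any of the other 5. No member reached it in stem-like (0.0402% of all genes), TA-like (0.00885%) or enterocyte-like cells (0.00858%), where an unadjusted p under 0.05 was found for 3, 4 and 6 of them and for 650 of 9946, 502 of 11305 and 869 of 11659 genes in all. DESeq2 called 1, 0 and 4 members there, of 15, 11 and 34 genes in all. In stem-like cells DESeq2 gave no adjusted p for the other 6. Since the genes were chosen for such differences, nothing is read from these counts. The median log2 fold change of the 7 was 0.70 over all epithelial cells, beside -0.01 over all 16629 genes tested.

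**Figure D3:**
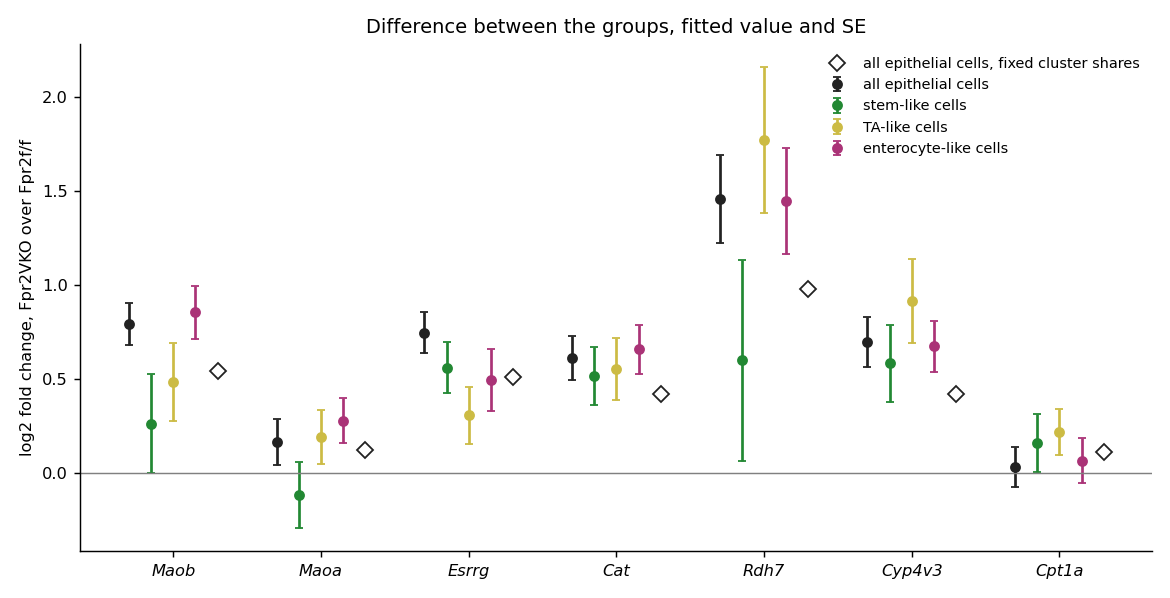
Fitted log2 fold change of Fpr2VKO over Fpr2f/f, y axis, for each gene in 4 sets of cells. Filled points show the edgeR estimate with its SE, and open diamonds the value over all epithelial cells with cluster shares held fixed. Rdh7 has the largest values, while the points of Maoa and Cpt1a lie at 0.28 or lower, and the diamonds of the other 5 lie below the points for all epithelial cells.

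The makeup of the libraries was then held fixed by weighting each of 26 clusters alike in every library. Maob was at 25.4, 27.2 and 25.3 CPM in Fpr2f/f and at 35.5, 34.6 and 43.1 CPM in Fpr2VKO libraries on this scale, still without overlap. Its log2 difference was 0.54, beside 0.74 for the levels as measured. Esrrg went from 0.69 to 0.51, Cat from 0.55 to 0.42, Rdh7 from 1.42 to 0.98 and Cyp4v3 from 0.65 to 0.42, each without overlap. On this scale too, the Fpr2f/f values of Rdh7 and Cyp4v3 lay below their highest values of free RNA. Maoa and Cpt1a were at 0.12 and 0.11 with overlapping groups. Of all tested genes, 5.64% were apart in this direction on that scale. With 4 of the 5 clusters of enterocyte-like cells weighted alike, Maob went from 0.85 to 0.52 and Cyp4v3 from 0.66 to 0.27, and Maoa overlapped. There 4 members, Maob, Cat, Rdh7 and Cyp4v3, were apart, as were 6.53% of all tested genes. The fifth, led by Clca4a, had under 5 cells in a library and was left out of these weights.

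Within the enterocyte-like class, the cluster led by Fabp1, Slc2a2 and Leap2 (258 cells) held the highest pooled levels of Maob (227.0 CPM), Maoa (1405 CPM), Cat (296.2 CPM) and Rdh7 (135.3 CPM). Its leading genes serve fat binding, sugar transport and antimicrobial defence. Cyp4v3 was highest, at 421.6 CPM, in that Clca4a-led cluster of 60 cells, whose next genes were Ly6m and Pmp22. The Fabp1-led cluster made up 5.85%, 8.41% and 3.37% of enterocyte-like cells in Fpr2f/f against 11.4%, 21.2% and 9.83% in Fpr2VKO libraries, while its share of the UMIs of the class overlapped between the groups. Inside it, Maob was at 131.9, 181.9 and 211.3 CPM against 262.9, 238.0 and 253.1 CPM, and Rdh7 at 40.4, 96.8 and 99.4 CPM against 152.6, 165.6 and 136.0 CPM. The groups were apart for both genes in this cluster too, and for Cat and Esrrg, while Maoa, Cyp4v3 and Cpt1a overlapped. Esrrg there, at 21.3 to 37.9 CPM, lay below its mean of 49.7 CPM in free RNA and is not read. The share of all genes apart in this cluster was not counted, so nothing is read from the number of members.

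Of the 21 epithelial clusters with 20 or more cells in every library, those were counted in which the lowest library lay above the highest value of a gene in free RNA. They were 10 for Cat and for Cpt1a, 9 for Maoa, 7 for Esrrg, 6 for Maob, 4 for Cyp4v3 and 2 for Rdh7. The mean of the Fpr2VKO libraries was higher in 9 of these for Cat and for Cpt1a, 8 for Maoa, 7 for Esrrg, 5 for Maob, 4 for Cyp4v3 and 2 for Rdh7. Every Fpr2VKO library lay above every Fpr2f/f library in 7 of them for Cat, 4 for Esrrg, 2 each for Maob and Rdh7, 1 for Cpt1a and 0 for Maoa and Cyp4v3. Clusters of a library share their animal and are no replicates. The share of all genes so ordered in these clusters was not counted. The members were chosen for this direction, so nothing is read from these counts.

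Over all epithelial cells, the fold change of each gene but Rdh7 moved by more than the spread between replicates when only cells of at most 10% mitochondrial UMIs were kept. In epithelial cells with at most 10% mitochondrial UMIs (323 to 1352 cells a library), Maob was at 16.1, 11.9 and 10.9 CPM in Fpr2f/f and at 10.1, 10.2 and 10.1 CPM in Fpr2VKO libraries, so that all Fpr2VKO libraries lay below. The ratio of mean CPM was 0.782. In these cells 3 members (Maob, Maoa and Cpt1a) had every Fpr2VKO library below every Fpr2f/f library, as did 29.9% of all tested genes, and 1 member, Rdh7, had the reverse order, as did 1.83%. With TMM scaling between libraries, the fitted log2 change at that limit was 0.03 for Maob, 0.48 for Esrrg, 0.25 for Cat, 1.23 for Rdh7 and 0.52 for Cyp4v3. Maoa and Cpt1a turned to -0.43 and -0.24. Enterocyte-like cells gave 6.84%, 5.72% and 11.96% of the UMIs of these cells in Fpr2f/f against 4.47%, 2.94% and 4.56% in Fpr2VKO libraries. The groups did not overlap in this share, and its part in the level of Maob was not tested.

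Enterocyte-like cells of at most 10% mitochondrial UMIs (29 to 159 a library) held Maob at 41.9, 64.9 and 54.5 CPM in Fpr2f/f and at 70.9, 85.5 and 49.4 CPM in Fpr2VKO libraries, which overlapped. Cat, Rdh7 and Cyp4v3 stayed apart there, as did 4.86% of all tested genes in that direction. Rdh7 was at 10.9, 11.5 and 7.50 against 27.9, 42.7 and 59.2 CPM. In barcodes with over 20% and up to 40%, which the limit had left out of all results above, Maob was at 20.9, 21.2 and 19.4 CPM against 26.9, 35.4 and 28.0 CPM over all epithelial cells. Maoa, Esrrg, Cat, Rdh7 and Cyp4v3 were apart in the same direction in those barcodes, which came from the same 6 libraries, and so were 8.91% of all tested genes. The members had been chosen for this direction, so nothing is read from their number.

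**Figure D4:**
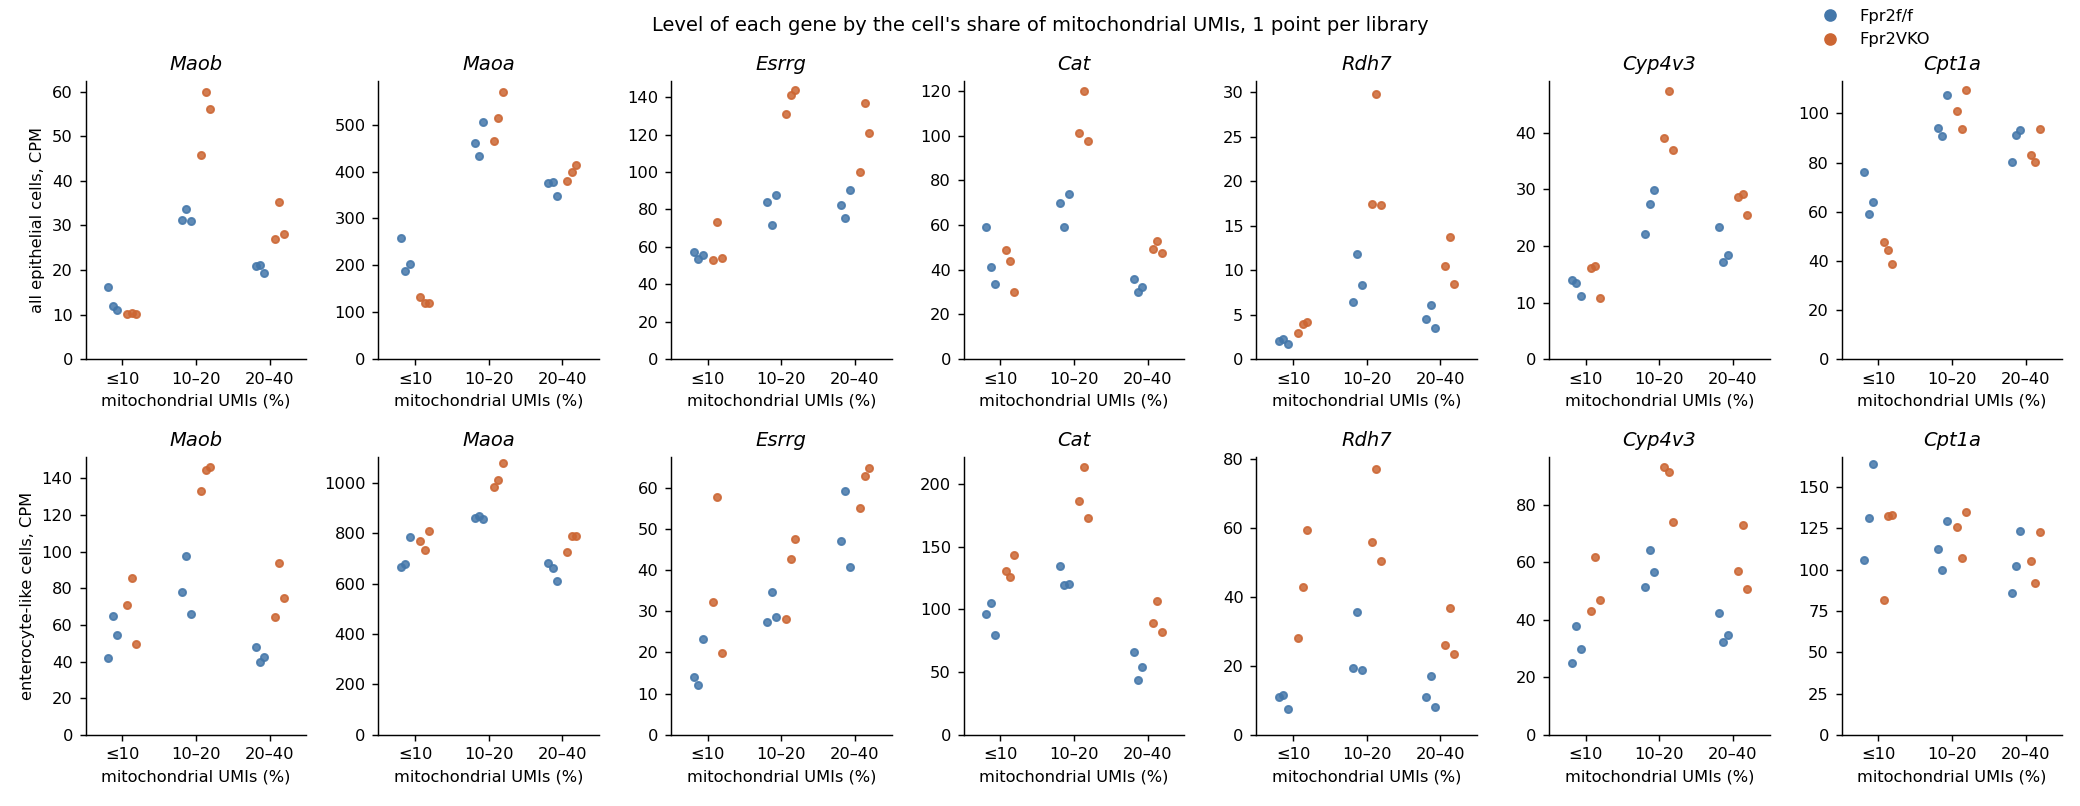
CPM of each gene, y axis from 0, in cells grouped by their share of mitochondrial UMIs, x axis in percent, over all epithelial cells (top row) and in enterocyte-like cells (bottom row). Each point is 1 library. Below 10% the groups of Maob overlap or turn, while Rdh7 stays higher in the Fpr2VKO libraries in all 3 bands of both rows.

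Free RNA held the other genes too. Maob was at 12.8, 14.4 and 12.1 CPM there in Fpr2f/f and at 17.4, 19.4 and 18.3 CPM in Fpr2VKO libraries. Its level in goblet-like and Paneth-like cells, 3.50 and 1.98 CPM, was below that of the free RNA, and in stem-like, TA-like, tuft-like and unnamed cells close to it. The pooled values of Maob in these 6 classes are therefore not read as expression or as a difference. The unnamed class is a mix of clusters. In its cluster led by Pfkfb3, Areg and Celf2 (1828 cells), every library held Maob above the highest value of free RNA, and the groups overlapped. In enterocyte-like cells the lowest library, at 64.0 CPM, was above the highest value of free RNA, 19.4 CPM. Rdh7 in free RNA was at 3.54 to 5.26 CPM in Fpr2f/f and at 7.51 to 8.75 CPM in Fpr2VKO libraries, while stem-like cells held 0 to 5.52 CPM and TA-like cells 1.31 to 7.33 CPM, so these classes are not read as expressing it. Cyp4v3 in free RNA was at 14.95, 15.7 and 17.1 CPM in Fpr2f/f and at 23.8, 22.1 and 21.8 CPM in Fpr2VKO libraries, near or above its TA-like levels and in the same order of groups, so those are not read either. Esrrg in enterocyte-like cells, at 33.6 CPM, lay below its mean of 49.7 CPM in free RNA, and is read likewise, as are its Fpr2f/f values in tuft-like cells. Of all tested genes, 2.7% had every Fpr2VKO library above every Fpr2f/f library in free RNA, as had 5 members, which were chosen for this direction.

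Cells with a UMI were counted as well. Cells under 2000 UMIs were left out, which kept 300, 424 and 580 of 376, 464 and 624 Fpr2f/f enterocyte-like cells. Of the 359, 471 and 356 Fpr2VKO ones, 351, 435 and 348 were kept. After each kept cell was thinned to 2000 UMIs, 10.4% ± 2.48 of Fpr2f/f and 14.7% ± 2.25 of Fpr2VKO enterocyte-like cells held a UMI of Maob (SD, n = 3 each), which overlapped. In all cells, not thinned, the shares were 32.1% and 49.7%, and in immune-like cells, with a median of 5887 UMIs against 8479, they were 0.565% and 2.40%. Rdh7 was found in 2.85% ± 1.24 and 8.22% ± 2.85 of thinned enterocyte-like cells and Cyp4v3 in 7.41% ± 0.77 and 11.7% ± 2.36, both without overlap. Cat, at 15.7% ± 2.09 and 21.8% ± 5.71, overlapped. Esrrg was found in 35.3% ± 3.55 and 44.8% ± 3.12 of thinned stem-like cells, without overlap. Cpt1a was level in thinned enterocyte-like cells, at 22.8% ± 1.86 and 24.0% ± 1.90. Free RNA of Maob, Esrrg, Cat, Rdh7 and Cyp4v3 was higher in Fpr2VKO libraries too, and its part in these shares was not tested.

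Likeness of pattern was measured by Pearson's r of log2(CPM + 1) over 54 points of class and library, among 6608 genes. The classes included immune-like cells. For Maob, Rdh7 and Cyp4v3 the points also included classes near or below free RNA, which are not read as expression. The points share libraries, so r is a description. Maob was most like Slc9a2 (r = 0.88), a sodium/proton exchanger, Dpyd (0.88), which degrades pyrimidines, and Reep6 (0.87). Maoa was most like Muc3, Pcsk5 and Prap1 (0.95 to 0.97), and Cpt1a like Bak1 and Letm1 (0.94 to 0.95). Cat went with Dpp4 (0.91), Glrx (0.90) and Sod2 (0.90), of which Glrx and Sod2 encode a glutaredoxin and the mitochondrial superoxide dismutase. Rdh7 went with Gstm3 and Marc2 (0.84 to 0.85), Cyp4v3 with Nipsnap3b, Glrx and Luzp1 (0.85 to 0.88) and Esrrg with Sema5a, Cdo1 and Syde2 (0.89 to 0.90). Between members, r ran from 0.23 (Esrrg and Rdh7) to 0.85 (Cat and Cyp4v3), and that of Maob with Maoa was 0.73.

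Other genes of the same pathways showed no called difference. Of 179 tested genes on 7 companion lists, edgeR called 0 over all epithelial cells and 19 had an unadjusted p under 0.05, as did 1493 of all 16629 genes tested. The counts of tested genes with such a p were 16 of 137 in stem-like, 10 of 148 in TA-like and 19 of 157 in enterocyte-like cells, beside 650 of 9946, 502 of 11305 and 869 of 11659 of all genes tested there. EdgeR again called 0 of the list genes in each, and DESeq2 called 0 in each of the 4 comparisons. Over all epithelial cells, 11 of 16 genes of amine oxidation and monoamine handling were estimated higher (68.75%, beside 48.9% of all genes). The median log2 fold change was 0.05, beside -0.01 over all genes. The most abundant genes of this list were Aldh1b1 and Aldh9a1, which oxidize aldehydes, and Aoc1, the diamine oxidase that degrades histamine, at 107.8, 98.9 and 120.1 against 133.9, 136.3 and 134.6 CPM. Aoc1 was the only 1 of the 16 with every Fpr2VKO library above every Fpr2f/f library, as were 3.21% of all genes. In enterocyte-like cells 3 of 12 (25%) were so ordered, beside 5.53% of all genes. So were 7 of 40 peroxisomal genes (17.5%), 5 of 35 of mitochondrial fatty acid oxidation (14.3%) and 2 of 22 of retinol handling (9.09%). The antioxidant, P450 and receptor lists held 1 of 25, 1 of 6 and 0 of 17. The reverse order held for 2 antioxidant genes, 1 P450 gene and 5.86% of all. The lists were chosen with earlier results known, so nothing is read from these counts.

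The retinol and retinoic acid list had a median of 0.12 over 29 tested genes. Rbp2, which binds retinol in enterocytes, was at 75.5, 105.0 and 50.5 CPM against 158.7, 230.0 and 77.6 CPM, which overlapped. Dhrs4, a retinal reductase, was at 64.2, 60.4 and 56.5 CPM against 88.9, 83.4 and 69.2 CPM, and Isx, which represses vitamin A uptake, had a log2 fold change of -0.06 ± 0.12 (SE). Medians were 0.07 over 29 genes of peroxide and thiol antioxidants, 0.09 over 42 peroxisomal genes, 0.06 over 36 genes of mitochondrial fatty acid oxidation, 0.11 over 9 genes of cytochrome P450 family 4 and below 0.01 in size over 18 nuclear receptors and coactivators. Prdx1 and Gpx1, which reduce peroxides, and Txn1, which reduces protein disulfides, had log2 fold changes of 0.24 ± 0.16 (Prdx1), 0.02 ± 0.14 (Gpx1) and 0.08 ± 0.14 (Txn1), each with its SE.

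Phyh and Abcd3 of the peroxisomal list had log2 changes of 0.29 ± 0.11 and 0.09 ± 0.10 (SE). For the mitochondrial genes Hadh, Etfa and Ucp2 they were 0.23 ± 0.11, 0.24 ± 0.15 and 0.07 ± 0.12, for Cyp4f14, Cyp4f40 and Por of the P450 list 0.16 ± 0.12, -0.01 ± 0.15 and -0.11 ± 0.12, and for the receptors Hnf4a, Hnf4g and Vdr -0.01 ± 0.11, 0.05 ± 0.15 and 0.24 ± 0.12 (log2, SE).

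**Figure D5:**
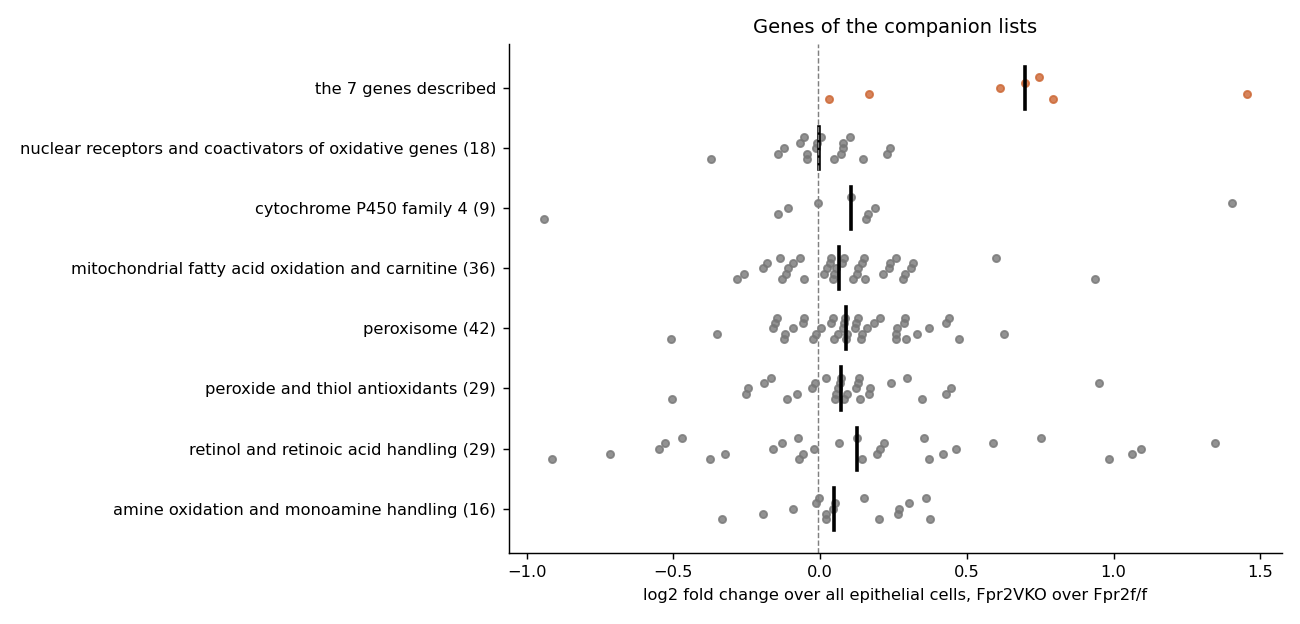
Log2 fold change over all epithelial cells, x axis, of each tested gene of 7 companion lists (grey, numbers of genes in parentheses) and of the 7 genes described (orange). Black bars are medians and the dashed line is the median of all genes tested. The list medians reach at most 0.12, below the 0.70 of the 7 genes, which were chosen for their differences.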

How the data were processed

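Deposited matrices hold raw UMI counts per gene and barcode, which the authors made by aligning reads to mm10 and counting UMIs with the platform's software. Seurat 4.0 is named in the submitters' processing notes, and the study's own limits on cells are not given in the sources used here. Cells had at least 1000 UMIs, 500 genes and at most 20% mitochondrial UMIs. They were clustered on 2000 variable genes without the 7 genes (30 principal components, libraries aligned by mutual nearest neighbours, 20 neighbours, Leiden resolution 1, leidenalg 0.10.2, scikit-learn 1.9.0, Python 3.11.15), and clusters were named from marker lists. Doublets were kept and were removed only as an alternative.

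Counts were summed per library and class (at least 20 cells), filtered with filterByExpr, scaled by TMM and fitted with edgeR 4.0.16 (quasi-likelihood test, R 4.3.3), with Benjamini-Hochberg adjustment over all genes tested and a threshold of 0.05. The script was tested on simulated data. DESeq2 1.42.0, no filter, RLE scaling, the replicate block, other cell limits and leaving out each library were alternatives. The study's test over single cells was not used, since cells are not replicates. The 7 genes, the companion lists and the marker lists were chosen with earlier results of these data known. Named besides the 7 were, from each companion list, any called gene and the 3 with the highest mean CPM, and for each member the 3 most alike genes. A few genes that this rule names are not reported here. Bands of mitochondrial share were added after seeing the data. Library totals were 90142126 to 189516114 UMIs. The cells of a library held 26540424 to 52349750 of them, and the part in a class of cells sets the precision of its low levels. Positions are 1-based from GENCODE (GRCm38), and promoters are from RefSeq.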

Additional observations from a re-analysis of the deposited data

Results flagged for a closer look

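Barcodes under 100 UMIs, which no comparison uses and which hold 7.25% to 13.1% of the UMIs of a library, showed the same order of groups for 5 of the 7 genes and for 2.7% of all genes tested, and this signal outside the main measurement is why they are listed. The mean CPM of the Fpr2VKO libraries over that of the Fpr2f/f libraries was 1.4 for Maob, 1.38 for Esrrg, 1.26 for Cat, 1.94 for Rdh7 and 1.42 for Cyp4v3, with all 3 Fpr2VKO libraries above all 3 Fpr2f/f libraries for each gene. The 7 genes were chosen for this direction in cells of the same libraries, so nothing is read from their number. Groups of 3 libraries are too small to be tested for single outlying libraries.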

How the results depend on the processing

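The numbers of genes called (7 over all epithelial cells, 4 in stem-like, 1 in TA-like and 1 in enterocyte-like cells) depended on the processing. DESeq2 called 106, 15, 11 and 34, and no filter on low counts gave 180, 38, 45 and 150. Other cell limits gave 128 (all epithelial) and 8 (enterocyte-like) at 10% mitochondrial UMIs, 2 (TA-like) and 5 (enterocyte-like) at 40%, and 3 (all epithelial) at 2000 UMIs. Removing doublets gave 2 in stem-like cells, and clustering with no alignment 2 in enterocyte-like cells. Leaving out each library in turn gave 1 to 114 over all epithelial cells, 2 to 16 in stem-like, 1 to 13 in TA-like and 1 to 14 in enterocyte-like cells, the highest without Fpr2f/f replicate 1, except in TA-like cells, where it was without Fpr2f/f replicate 3. The causes were not tested. Stem-like cells at the 10% limit gave no value, since a library then held under 20 cells.

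With the replicate block, 50, 31, 66 and 47 genes were called. Among them were Maob, Esrrg, Rdh7 and Cyp4v3 over all epithelial cells and Esrrg in stem-like cells. Cat, Rdh7 and Cyp4v3 were called in TA-like cells, and these and Maob in enterocyte-like cells. The members were chosen for their differences, so nothing is read from their number. The labels do not say what a number shares, and deviations of same-numbered libraries correlated at -0.070, -0.055 and 0.292 over all epithelial, -0.034, 0.131 and 0.110 in stem-like, 0.063, 0.101 and 0.307 in TA-like and -0.089, 0.095 and 0.275 in enterocyte-like cells. In each of the 4 comparisons at least 1 value was under 0.1. Fpr2f/f replicate 1 correlated best with Fpr2VKO replicate 2, and Fpr2f/f replicate 3 with Fpr2VKO replicate 3. The replicates 3 also shared more barcodes than under independence (9, beside 2.25). The numbers were not taken as pairs, and whether some libraries were prepared together was not tested.

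Maob over all epithelial cells was called in 7 of 15 alternatives and Esrrg in 6. Their log2 fold changes ran from 0.66 to 0.89 and from 0.63 to 0.81, apart from 0.03 and 0.48 at the 10% limit. Leaving out 1 library kept both called in 1 of 6 cases each. In enterocyte-like cells, where the values as reported called neither Maob nor Rdh7, 6 and 5 of 15 alternatives called them. The alternatives called 1 to 180 genes in all over all epithelial cells and 1 to 150 in enterocyte-like cells. The members were chosen for their differences, so nothing is read from how often they were called. At the 10% limit Maob turned to -0.11 in TA-like cells.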
